A study of Mus musculus with 12 samples.

Results

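A set of 10 genes of NF-kB feedback and fibroblast chemokine output was followed through a labelling time course in NIH-3T3, a mouse fibroblast cell line that grows without limit in culture. They were taken from the deposited gene table by symbol, and all 10 were found among its 17419 genes. They comprise 2 inhibitors of NF-kB (Nfkbia and Tnfaip3), 2 precursors of NF-kB subunits (Nfkb1 and Nfkb2), the CC chemokines Ccl2 and Ccl7, the CXC chemokines Cxcl1, Cxcl5 and Cxcl12, and the cytokine Csf1. Wild-type cells received 800 µM 4-thiouridine (4sU) for 15, 30, 60, 90 or 120 min, or no 4sU, with replicates A and B in each of the 6 groups. No stimulus of NF-kB is named in the labels, which do not give the state of NF-kB in these cells. Any effect of 4sU on NF-kB was not tested. In SLAM-seq, incorporated 4sU is converted chemically and is read as C, which separates RNA made during labelling (new) from RNA that was already present (old). The share of new RNA is the new-to-total ratio, given here as a percentage. The series asks how the length of labelling affects quantification.

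NF-kB is a family of dimeric transcription factors that are held in the cytoplasm of resting cells by inhibitor proteins of the IkB family. Signals from receptors for tumour necrosis factor, interleukins or bacterial products lead to destruction of the inhibitor, and the freed dimers enter the nucleus and bind kappaB sites. Nfkbia and Tnfaip3 are themselves target genes, so that activation of the pathway produces its own inhibitors. Fibroblasts respond to the same signals by secreting chemokines that attract monocytes and neutrophils, and messengers of this kind are known for rapid turnover directed by AU-rich elements in their 3′ UTRs.

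Between 9917026 and 13739380 reads were counted per library. Of the 10 genes, 9 had a mean count of at least 100, from 125.3 for Cxcl1 and Cxcl12 to 5392 for Csf1. Tnfaip3 is a low-count gene, with a mean of 83.0 and a range of 56 to 124 reads, and its values are the least precise. All 8 fibroblast markers examined had mean counts of at least 100. Their summed level was 15780 to 15930 CPM (counts scaled to a common library size) without 4sU and 18850 to 19420 CPM at 120 min, and the part of this shift in the results was not tested. Of 6 macrophage markers 5 were in the table and none reached a mean count of 100 (0 genes), with sums of 6.71 to 10.97 CPM over the 12 libraries. The 3 endothelial markers summed to 0.750 to 1.697 CPM, and the 2 of 4 epithelial markers in the table to 0 to 0.582 CPM. The unlabelled libraries differed from each other for several of the 10 genes, with log2 differences of A minus B from -0.38 for Cxcl1 to 0.15 for Cxcl12. The labels do not say whether replicates are separate cultures, and p-values then measure only the spread between these libraries. Fewer expressing cells and less RNA per cell cannot be told apart in these bulk libraries.

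Levels between genes were compared in RPKM, which divides CPM by the deposited gene length in kilobases, in the unlabelled libraries. Csf1, the growth factor that sustains monocytes and macrophages, was the most abundant of the 10 at 115 ± 7.48 RPKM (SD, n = 2). The monocyte attractants Ccl2 and Ccl7 followed at 62.0 ± 4.46 and 31.0 ± 0.850 RPKM. Nfkb2 was at 28.2 ± 0.715 RPKM, Nfkb1 at 22.4 ± 1.68 RPKM, Cxcl5 at 20.4 ± 2.74 RPKM and Nfkbia at 20.0 ± 0.440 RPKM. The libraries of Nfkb1 and Cxcl5 overlapped, as did those of Cxcl5 and Nfkbia, and these neighbours could not be ordered. Cxcl1 was at 6.29 ± 1.18 RPKM, Cxcl12 at 1.85 ± 0.136 RPKM and Tnfaip3 at 1.35 ± 0.118 RPKM. Cxcl12, the ligand of Cxcr4 that is made by many stromal cells, was thus among the least abundant of these transcripts. All other neighbours in this order had libraries that did not overlap.

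Of the 6 genes with an entry in the RefSeq promoter table (GRCm38.p6), 5 carried the kappaB consensus, searched on both strands in the 250 bases before a start site, with overlapping matches counted separately. The consensus was present before 8.23% of 27025 genes (2225 genes) and in 7.25% of all 32851 windows. The promoters of 3 genes are shown because they place the consensus beside the start sites of an inhibitor, a chemokine and a subunit precursor. Capitals mark the matched bases.
Nfkbia, chr12:55492648-55492897, minus strand: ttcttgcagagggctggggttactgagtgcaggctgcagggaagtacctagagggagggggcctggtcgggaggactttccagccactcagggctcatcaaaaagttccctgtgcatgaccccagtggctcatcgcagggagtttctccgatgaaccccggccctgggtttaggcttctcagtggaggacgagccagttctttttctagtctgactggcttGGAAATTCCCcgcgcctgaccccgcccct
Cxcl1, chr5:90890995-90891244, plus strand: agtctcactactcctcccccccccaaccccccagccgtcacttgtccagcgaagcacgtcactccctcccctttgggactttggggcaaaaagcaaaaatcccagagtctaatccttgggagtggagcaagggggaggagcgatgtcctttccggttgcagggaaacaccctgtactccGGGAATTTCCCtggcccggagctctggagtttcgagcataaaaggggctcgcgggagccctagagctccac
Nfkb2, chr19:46304487-46304736, plus strand: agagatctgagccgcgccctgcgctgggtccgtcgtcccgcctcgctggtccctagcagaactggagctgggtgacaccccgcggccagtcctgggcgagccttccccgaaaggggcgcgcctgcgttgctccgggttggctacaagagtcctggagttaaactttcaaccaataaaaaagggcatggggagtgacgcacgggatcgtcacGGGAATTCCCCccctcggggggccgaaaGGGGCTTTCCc
The Nfkbia match was separated from the start site by 19 bases. In Cxcl1 a pair of overlapping matches ended 61 and 60 bases before the start, and in the first of 3 Nfkb2 windows 3 matches ended 29, 28 and 1 bases before it. Tnfaip3 had matches 115 and 2 bases before its first start site, and Csf1 had 1 match 144 bases before its start. In the window of Cxcl12 there was no match (0), which says only that these letters are not in this window. A match describes the sequence and is not evidence of binding.

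The new-to-total ratio separated the 10 transcripts widely. At 60 min it was 99.2% ± 1.21 (SD, n = 2) for Tnfaip3, 92.7% ± 1.93 for Nfkbia and 88.9% ± 1.89 for Cxcl1. Cxcl5 was at 67.4% ± 2.38 and Ccl7 at 56.7% ± 6.15. Ccl2, Csf1, Nfkb1 and Cxcl12 followed at 34.6% ± 0.962, 32.4% ± 0.813, 21.9% ± 3.89 and 19.0% ± 5.48. Nfkb2 was lowest at 9.81% ± 0.163. The median over the 9065 genes that reached a mean count of 100 was 15.5%, so that 9 of the 10 genes were above it and Nfkb2 below. The median over the 10 genes was 45.7%. In this order the authors' 90% intervals of neighbouring genes overlapped at 60 min, except between Ccl7 and Ccl2 and between Csf1 and Nfkb1. At 120 min the median of all genes was 35.4%, and Nfkb2 and Cxcl12 were below it while the other 8 were above. These ratios are described and not tested, since any transcript that is made gains new RNA with time.

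**Figure D1:**
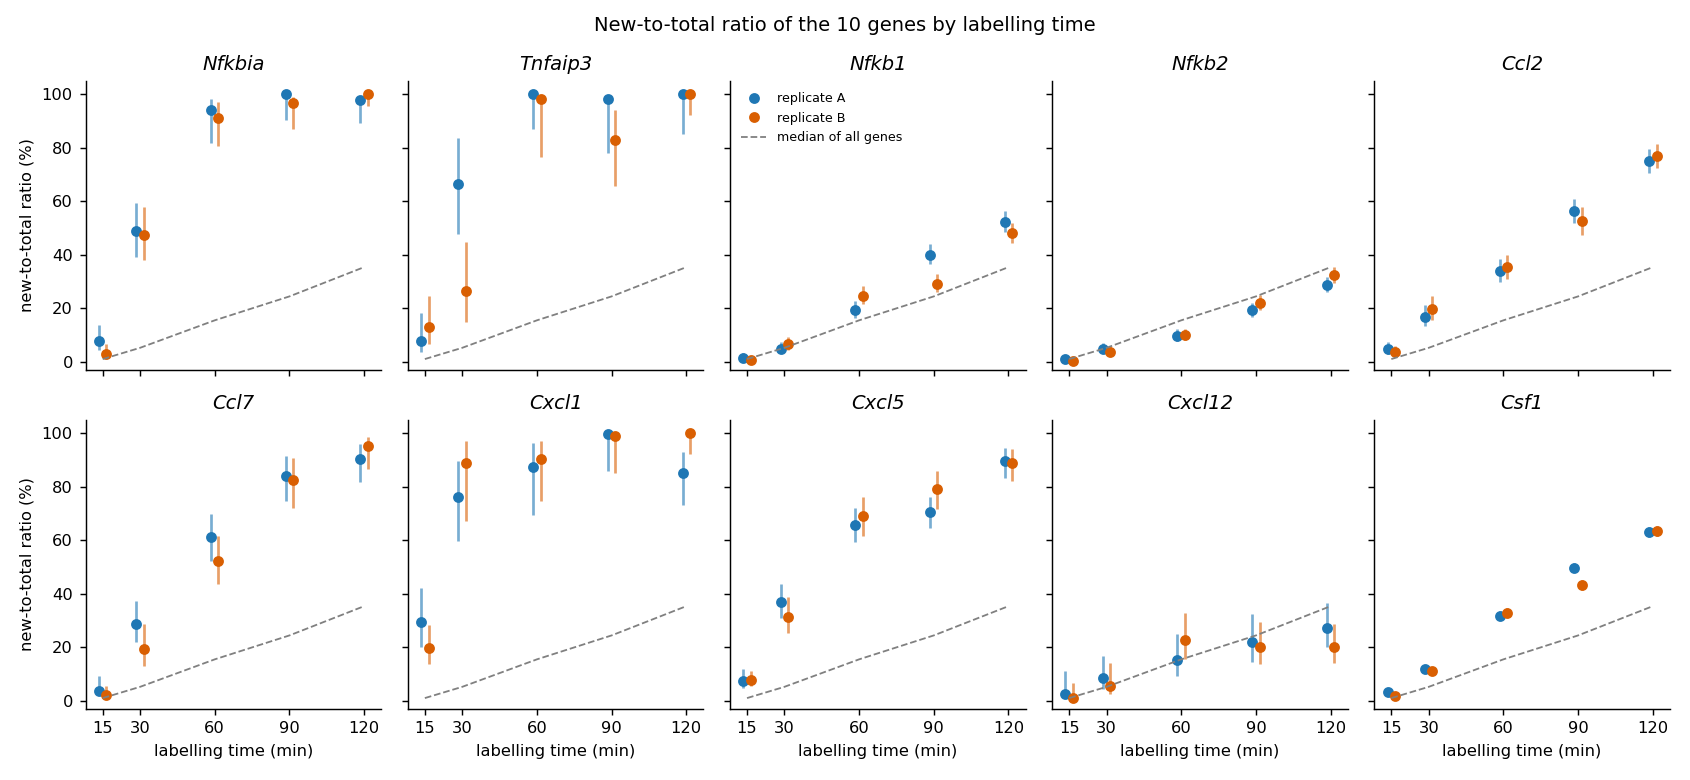
New-to-total ratio (%) of each of the 10 genes against labelling time (min) in replicates A and B, with points for the posterior maximum, bars for the authors' 90% interval and a dashed line for the median of all 9065 genes. Nfkbia, Tnfaip3 and Cxcl1 are near the top of the scale from 60 min on, while Nfkb2 stays near or below the dashed line.

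Nfkbia (chromosome 12, 55489410 to 55492647, minus strand, GENCODE M21 on GRCm38) encodes the IkB alpha protein, which removes NF-kB from DNA and returns it to the cytoplasm. Its ratio was 7.74% and 3.04% in 15 min replicates A and B, 48.9% and 47.3% after 30 min, 94.0% and 91.3% after 60 min, 100% and 96.9% after 90 min, and 97.9% and 100% after 120 min. The 15 min replicates differed by more than 2 times, and every library from 60 min on was at 91.3% or more. A posterior maximum of 100% lies above its own interval, which was 95.8% to 99.9% in 120 min replicate B. The ratio at 60 min exceeded that of 99.7% of the 9065 genes. Of these genes, Dusp5 and Plk2 had the ratios most like those of Nfkbia over the 10 labelled libraries, at Euclidean distances of 0.0956 and 0.0981 in fractions. Dusp5 encodes a phosphatase of ERK kinases and Plk2 a polo-like kinase.

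The total level of Nfkbia lay between 25.8 and 32.8 CPM. It was 31.1 and 32.1 CPM in no4sU replicates A and B, 27.1 and 29.7 after 15 min, 25.8 and 30.7 after 30 min, 28.4 and 30.3 after 60 min, 29.1 and 27.5 after 90 min, and 31.0 and 32.8 after 120 min. The 120 min libraries lay above the 15 min libraries but not above the unlabelled ones. The trend with labelling time was 0.08 ± 0.0444 log2 per hour (SE, edgeR quasi-likelihood test with Benjamini-Hochberg adjustment over 11526 genes, adjusted p = 0.136), which did not pass. Old Nfkbia RNA, the total level times 1 minus the ratio, was 26.9 CPM on average after 15 min, 14.7 after 30 min, 2.16 after 60 min and 0.317 after 120 min, the last being 1.18% of the 15 min value.

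Tnfaip3 (chromosome 10, 19000910 to 19015657, minus strand) encodes the ubiquitin-editing enzyme that dampens signalling upstream of NF-kB. Its ratio was 7.84% and 12.8% in 15 min replicates A and B, 66.3% and 26.4% after 30 min, 100% and 98.3% after 60 min, 98.1% and 83.0% after 90 min, and 100% in both 120 min libraries. The replicates at 30 min differed by more than those of the other 9 genes at that duration, with 90% intervals of 47.7% to 83.7% and 14.9% to 44.9% that did not overlap. The level was 7.84 and 8.88 CPM without 4sU, 9.76 and 7.14 after 15 min, 7.55 and 7.79 after 30 min, 5.85 and 7.08 after 60 min, 5.43 and 6.96 after 90 min, and 7.07 and 5.55 after 120 min. The 120 min libraries were below both unlabelled and both 15 min libraries. The level fell with labelling time by 0.26 ± 0.0883 log2 per hour (SE, edgeR adjusted p = 0.0170). The call was lost when 15 min replicate A was left out (-0.17, adjusted p = 0.165), when 120 min replicate B was (-0.23, adjusted p = 0.0864) and with DESeq2 (-0.26, adjusted p = 0.0525).

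The 2 inhibitors thus had ratios among the highest of all genes measured, in the 99.7th and 99.9th percentile at 60 min. Tnfaip3 was placed among the 9065 genes by its value and is not one of them.

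Nfkb1 (chromosome 3, 135584655 to 135691547, minus strand) and Nfkb2 (chromosome 19, 46304320 to 46312385, plus strand) encode the long precursors from which DNA-binding subunits are cut, and both precursors also retain other subunits in the cytoplasm. Nfkb1 had a ratio of 1.52% and 0.720% in 15 min replicates A and B, 4.93% and 6.51% after 30 min, 19.2% and 24.7% after 60 min, 40.1% and 29.2% after 90 min, and 52.3% and 48.2% after 120 min. Its level lay between 87.9 and 98.6 CPM in all 12 libraries. The Nfkb1 trend was -0.04 ± 0.0271 log2 per hour (SE, edgeR adjusted p = 0.233), and with scaling by library size alone it passed (-0.08, adjusted p = 0.0287).

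Nfkb2 had the lowest mean ratio of the 10 genes from 15 to 90 min. The Nfkb2 libraries were below all others at 30 and 60 min, but overlapped those of Nfkb1 at 15 min and of Cxcl12 at 90 min. At 30 and 60 min its 90% intervals overlapped those of the next gene. Its ratio was 1.14% and 0.170% in 15 min replicates A and B, 4.85% and 3.48% after 30 min, 9.69% and 9.92% after 60 min, 19.2% and 22.1% after 90 min, and 28.7% and 32.4% after 120 min. Against all genes it was in the 30.8th percentile after 15 min and the 42.8th after 120 min. The level was 110.5 and 106.7 CPM in no4sU replicates A and B, 104.9 and 102.3 after 15 min, 108.7 and 112.3 after 30 min, 120.0 and 113.2 after 60 min, 118.9 and 116.6 after 90 min, and 119.8 and 121.0 after 120 min. Every library from 60 min on was above both unlabelled and both 15 min libraries. Nfkb2 rose by 0.11 ± 0.0250 log2 per hour (SE, edgeR adjusted p = 0.000533), and it passed in the trend under every alternative tried, including the fit without any single library. At 120 against 15 min it was higher by 0.22 ± 0.0589 log2 (SE, edgeR adjusted p = 0.0143). That call was lost when either 15 min library or either 120 min library was left out (adjusted p from 0.0635 to 0.113), with scaling by library size alone (0.16, adjusted p = 0.0614) and with the labelled part scaled by a loss implied by all genes, explained with the trends (0.18, adjusted p = 0.109). Nfkb2 against no4sU the difference was 0.15 ± 0.0583 (adjusted p = 0.0878). Leaving out no4sU replicate A gave 0.17 (adjusted p = 0.0212) and leaving out B gave 0.12 (adjusted p = 0.184).

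The Psd gene overlaps Nfkb2 on the opposite strand and had a mean count of 32.8 against 1288 for Nfkb2. The sources used here do not say whether counting used strand, and reads of the pair cannot be separated. The old part of the Nfkb2 level was 103 CPM on average after 15 min and 83.6 CPM after 120 min, or 81.2% of the 15 min value. The new part was 0.685 CPM after 15 min and 36.8 CPM after 120 min. The other 9 genes, apart from Cxcl12 at 88.0%, kept at most 47.1% of the old RNA of 15 min at 120 min, the value of Nfkb1.

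**Figure D2:**
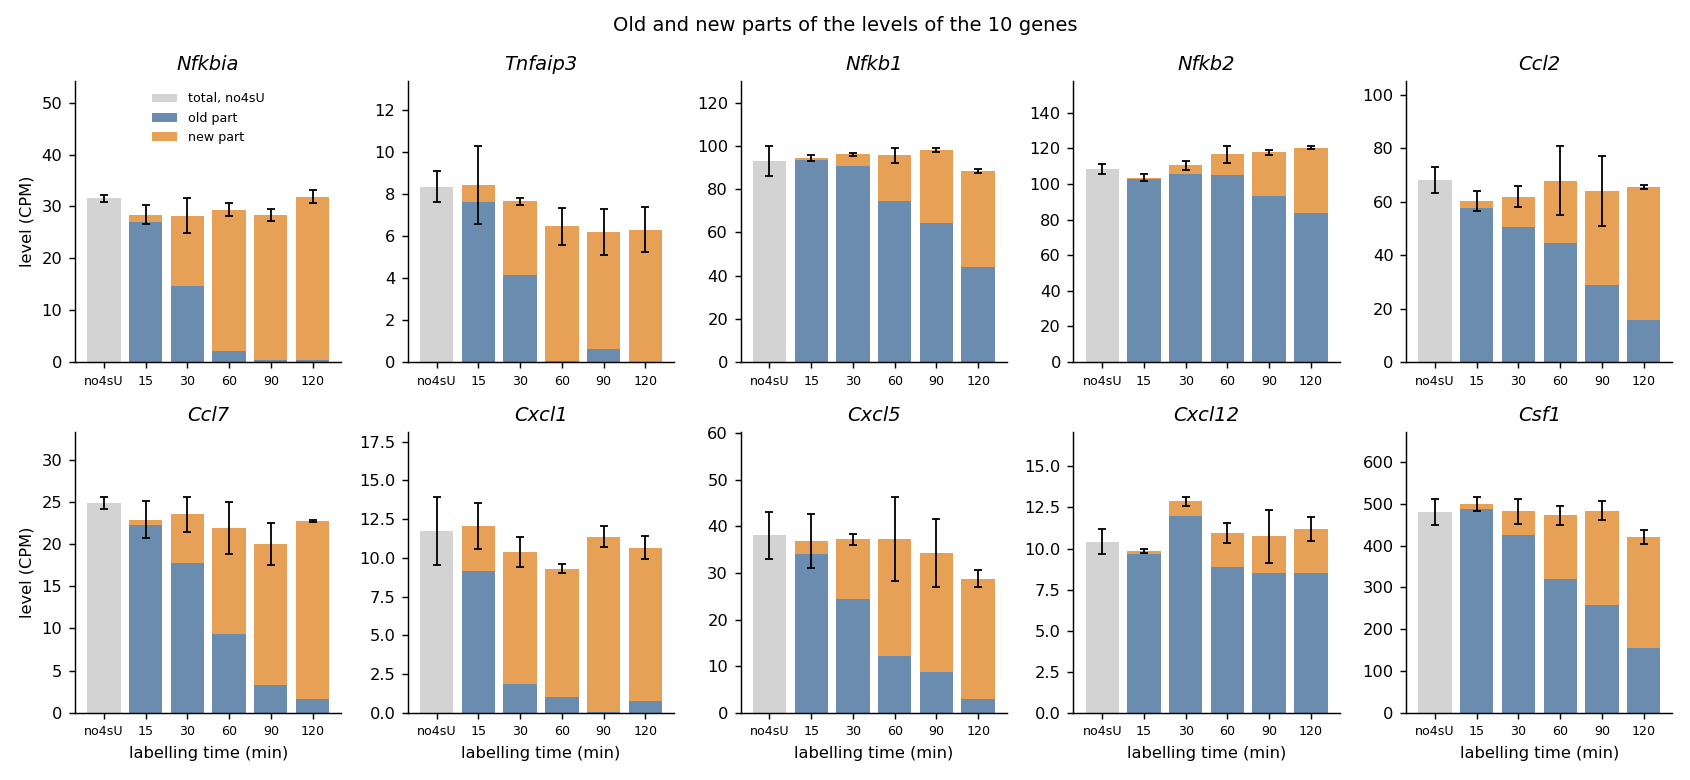
Mean level (CPM) of each gene without 4sU (grey) and at each labelling time (min), divided into old RNA (blue) and new RNA (orange), with bars for the SD of the total over 2 libraries. The old part of Nfkbia and Cxcl1 is nearly gone by 60 min, while that of Nfkb2 and Cxcl12 makes up most of the level at 120 min.

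Ccl2 and Ccl7 are neighbouring chemokine genes on chromosome 11 (82035571 to 82037453 and 82045712 to 82047525, plus strand), 8258 bases apart, and both proteins attract monocytes through Ccr2. Ccl2 had a ratio of 4.68% and 3.62% in 15 min replicates A and B, 16.9% and 19.7% after 30 min, 33.9% and 35.3% after 60 min, 56.5% and 52.6% after 90 min, and 75.1% and 77.03% after 120 min. Ccl7 had 3.76% and 2.25%, 28.8% and 19.4%, 61.1% and 52.4%, 84.1% and 82.8%, and 90.3% and 95.2%, in the same order. From 60 min on, each Ccl7 library was above each Ccl2 library, and the 90% intervals of the genes did not overlap. By an apparent half-life computed from the ratio at 60 min, Ccl2 was at 98.0 min ± 3.39 (SD, n = 2) and Ccl7 at 50.1 min ± 8.47.

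Neither chemokine passed a test of its total level. Ccl2 lay between 54.6 and 77.02 CPM, with trend 0.06 ± 0.0444 log2 per hour (SE, edgeR adjusted p = 0.296), and its replicates at 60 min were at 77.02 and 58.6 CPM. Ccl7 lay between 18.3 and 25.3 CPM, with trend -0.05 ± 0.0542 log2 per hour (adjusted p = 0.459). Gm17268, on the opposite strand, overlaps Ccl2 in the annotation, and 4 of the 12 counts of Ccl2 were not whole, so that its level is less certain than its read number alone would give.

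Cxcl1 (chromosome 5, 90891241 to 90893115, plus strand), a neutrophil attractant that binds Cxcr2, had the highest mean ratio of the 10 genes after 15 min and after 30 min. Its ratio was 29.5% and 19.8% in 15 min replicates A and B, 76.3% and 88.9% after 30 min, 87.6% and 90.2% after 60 min, 99.7% and 99.2% after 90 min, and 85.0% and 100% after 120 min. Both libraries exceeded those of the other 9 genes after 15 min and after 30 min. However, 90% intervals of Cxcl1 and the low-count gene Tnfaip3 overlapped at both durations. In 15 min replicate B they were 13.6% to 28.4% and 6.74% to 24.8%. In 30 min replicate A they were 59.8% to 89.65% and 47.7% to 83.7%. The Cxcl1 ratio at 15 min exceeded that of more than 99.9% of the 9065 genes, whose median was 1.00%. Its old RNA was 9.13 CPM on average after 15 min, 1.85 after 30 min, 1.03 after 60 min, 0.0638 after 90 min and 0.758 after 120 min. The genes with the most similar ratios, Snhg16 and Dusp1, were at distances of 0.206 and 0.256, larger than the distance from Nfkbia to Dusp5. The total level was 10.2 and 13.3 CPM without 4sU, 10.99 and 13.1 after 15 min, 11.1 and 9.69 after 30 min, 9.12 and 9.50 after 60 min, 11.8 and 10.9 after 90 min, and 10.1 and 11.2 after 120 min. The 60 min libraries were the lowest, the 120 min libraries overlapped the unlabelled ones, and the trend was -0.04 ± 0.0714 log2 per hour (SE, edgeR adjusted p = 0.715).

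Cxcl5, another Cxcr2 ligand, lies 129616 bases from Cxcl1 on chromosome 5 (90759360 to 90761624, plus strand). Its ratio was 7.49% and 7.76% in 15 min replicates A and B, 37.0% and 31.5% after 30 min, 65.7% and 69.1% after 60 min, 70.5% and 79.3% after 90 min, and 89.8% and 89.0% after 120 min. The level was 34.5 and 41.7 CPM without 4sU, 32.7 and 40.9 after 15 min, 36.3 and 38.0 after 30 min, 43.7 and 30.9 after 60 min, 39.5 and 29.1 after 90 min, and 30.0 and 27.5 after 120 min. Both 120 min libraries were below every unlabelled, 15 min and 30 min library, and the 60 and 90 min replicates were far apart. Cxcl5 fell by 0.19 ± 0.0579 log2 per hour (SE, edgeR adjusted p = 0.00793). The call was lost without 120 min replicate B (-0.14, adjusted p = 0.109) and with DESeq2 (-0.19, adjusted p = 0.123). At 120 min against no4sU the difference was -0.42 ± 0.149 log2 (SE, adjusted p = 0.0621), with -0.54 (adjusted p = 0.0022) without no4sU replicate A and -0.27 (adjusted p = 0.241) without no4sU replicate B.

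Cxcl12 (chromosome 6, 117168535 to 117181367, plus strand) had much lower ratios than the other CXC chemokines from 30 min on. The ratio was 2.58% and 1.17% in 15 min replicates A and B, 8.44% and 5.62% after 30 min, 15.1% and 22.9% after 60 min, 21.8% and 20.3% after 90 min, and 27.3% and 20.2% after 120 min. It moved from the 74.6th percentile of all genes after 15 min to the 31.4th after 120 min. With 99 to 151 reads per library its 90% intervals were wide, 20.1% to 36.5% and 14.2% to 28.6% at 120 min. Its level was highest at 30 min, at 12.7 and 13.1 CPM, and between 9.61 and 11.9 CPM in the other libraries. The difference from no4sU at 30 min was 0.31 ± 0.132 log2 (SE, unadjusted p = 0.0281, edgeR adjusted p = 0.842), and the trend was -0.00449 ± 0.0707 log2 per hour (adjusted p = 0.970).

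Csf1 (chromosome 3, 107741048 to 107760469, minus strand) had the largest counts and the narrowest intervals of the 10 genes, although 7 of its 12 counts were not whole. Its ratio was 3.24% and 1.72% in 15 min replicates A and B, 12.1% and 11.01% after 30 min, 31.8% and 32.9% after 60 min, 49.8% and 43.3% after 90 min, and 63.0% and 63.3% after 120 min. The level was 503 and 459 CPM without 4sU, 513 and 489 after 15 min, 504 and 461 after 30 min, 488 and 457 after 60 min, 499.5 and 467.5 after 90 min, and 433 and 409 after 120 min. Only the 120 min libraries were below the range of the other 10. Csf1 fell by 0.11 ± 0.0237 log2 per hour (SE, edgeR adjusted p = 0.000212), and this call was kept without each single library and with DESeq2.

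At 120 against 15 min the difference in Csf1 was -0.25 ± 0.0609 log2 (SE, edgeR adjusted p = 0.00746), and against no4sU it was -0.19 ± 0.0608 (adjusted p = 0.0402). The first call was lost when 15 min replicate A was left out (-0.22, adjusted p = 0.105) and when 120 min replicate B was (-0.21, adjusted p = 0.107). The second was close to the threshold and was lost without no4sU replicate A (-0.13, adjusted p = 0.0572), while without no4sU replicate B it was -0.26 (adjusted p = 0.000432). It was also lost without either 120 min library (Csf1 adjusted p of 0.102 without A and 0.270 without B), either 15, 60 or 90 min library (0.0520 to 0.0595) and when only the 2 groups compared were fitted (0.230). The old part was 488 CPM on average after 15 min and 155 CPM after 120 min, or 31.7% of the 15 min value, while the new part went from 12.5 to 266 CPM.

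**Figure D3:**
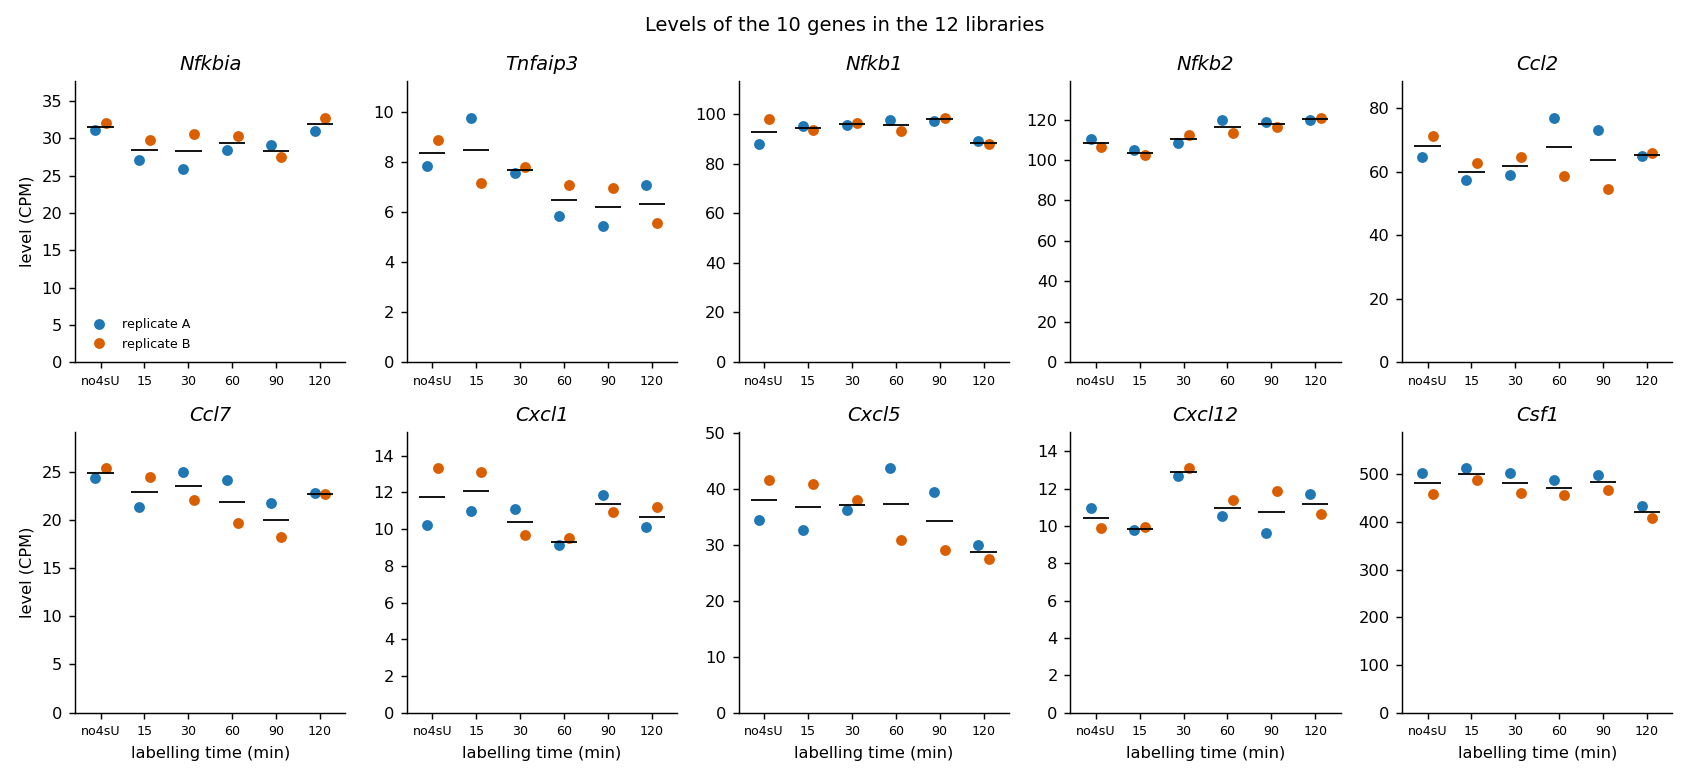
Level (CPM, linear axis from 0) of each gene in the 12 libraries, with replicates A and B as points and the group mean as a line, without 4sU and at each labelling time (min). Nfkb2 is higher in all libraries from 60 min on than at 15 min, and Csf1 and Cxcl5 are lowest at 120 min.

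Across the 10 genes, 4 passed the trend with labelling time, Nfkb2 upward and Csf1, Cxcl5 and Tnfaip3 downward. Of all 11526 genes, 37.8% passed, 18.3% upward and 19.5% downward, so a share of 4 in 10 is near the background. At 120 against 15 min, Nfkb2 and Csf1 passed, 2 of 10 beside 19.3% of 11564 genes (7.93% upward and 11.3% downward). At 120 min against no4sU, Csf1 alone passed, 1 of 10 beside 14.2% of all genes (5.43% upward and 8.78% downward). None of the 10 passed at 15, 30, 60 or 90 min against no4sU (0 by edgeR and 0 by DESeq2 at each duration), where 0%, 0%, 0.0173% and 1.39% of all genes passed, or 0, 0, 2 and 161 genes. These all-gene counts rested on single libraries. They became 54, 34, 216 and 1442 genes with no4sU replicate A left out, and 1336, 1363, 1213 and 1214 with B left out, while leaving out 90 min replicate A or B gave 18 or 8 genes at 90 min. The count of the 10 genes stayed at 0 in each of these fits. At 120 min against no4sU, 3533 genes passed with no4sU replicate A left out and 1899 with B left out, in place of 1643. At 15, 30, 60 and 90 min against no4sU, an unadjusted edgeR p under 0.05 was reached by 0, 1, 1 and 2 of the 10 genes. These were Cxcl12 after 30 min, Cxcl1 after 60 min and Tnfaip3 and Ccl7 after 90 min. Over all 11564 genes it was reached by 618, 670, 895 and 1869, so the counts of the 10 are near the background. The libraries at 120 and 15 min did not overlap in CPM for 8 of the 10 genes and 66.1% of all genes, and those at 120 min and no4sU for 5 of 10 and 51.6%. The median trend of the 10 genes was -0.04 log2 per hour beside 0.00365 for all genes, and 7 of the 10 values were below 0, beside 48.9% of all genes.

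Over all genes, the trend with labelling time was lower where the ratio was higher. In the 907 genes of the highest decile of the ratio at 120 min, the median trend was -0.16 log2 per hour, and 67.3% passed downward and 1.10% upward. Nfkbia, Ccl7, Cxcl1 and Cxcl5 belong to this decile, and of these 4 only Cxcl5 passed. Nfkbia, with nearly all of its RNA new at 120 min, had a trend of 0.08 log2 per hour, on the other side of 0 from the decile's median. Ccl2, in the ninth decile with a median of -0.13, was at 0.06. Csf1 at -0.11 and Nfkb1 at -0.04 were close to the medians of their deciles, -0.09 and -0.05. Nfkb2 at 0.11 was above the median of 0.02 of its decile. Differences between a gene and its decile were not tested.

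**Figure D4:**
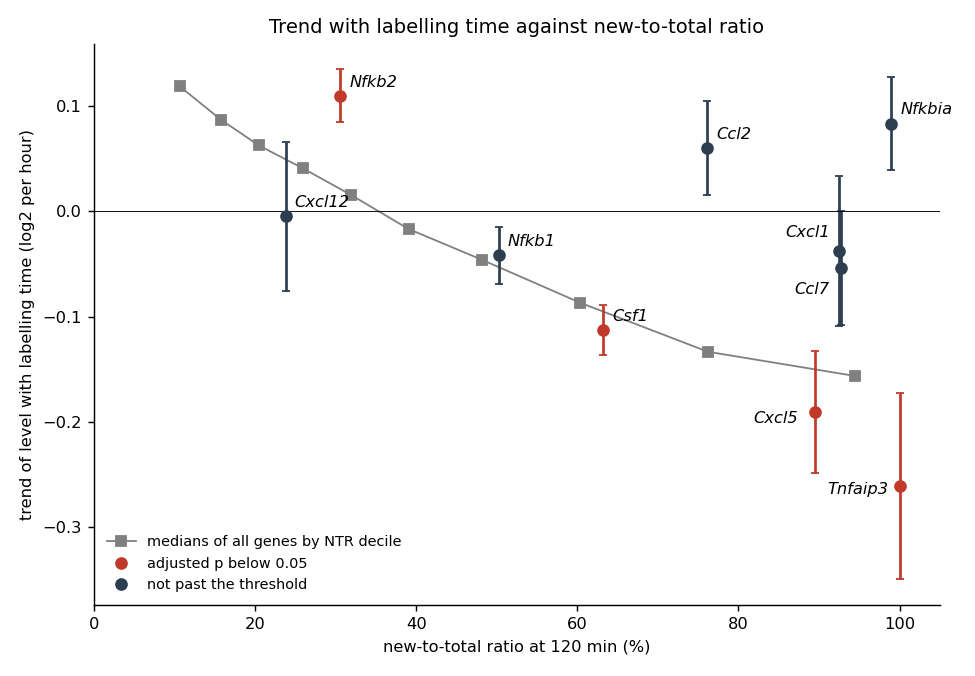
Trend of the level with labelling time (log2 per hour, bars are the SE) against the new-to-total ratio at 120 min (%) for the 10 genes, with squares for the medians of all genes by decile of the ratio. Red genes passed an adjusted p below 0.05. Nfkbia and Ccl2 lie above 0 where the squares lie below -0.1, and Nfkb2 lies above its neighbouring squares.

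An alternative that scales up the new part of each count by the loss of labelled RNA implied by that relation (30.5% and 32.1% in 120 min replicates A and B) moved several of these values. The implied loss was 16.2% and 13.1% after 60 min and 20.9% and 24.2% after 90 min. It was 0.415% and -2.58% after 30 min and -29.7% and -2.98% after 15 min, and where it was negative the alternative scaled the new part down. The Nfkbia trend became 0.28 log2 per hour and passed (edgeR adjusted p = 6.24e-06), and that of Ccl2 became 0.18 (adjusted p = 0.00366). Nfkb2 still passed, at 0.09 (adjusted p = 0.0103). The calls of Csf1 (-0.03, adjusted p = 0.345) and Cxcl5 (-0.03, adjusted p = 0.734) were lost. Ccl7 and Cxcl1 turned from below to above 0, at 0.13 and 0.17 log2 per hour. The loss was set from these same counts and was larger at the longer durations. A gene with mostly new RNA is therefore moved upward by the scaling itself. The test takes the loss as known, so calls and changes of sign under this alternative are not separate evidence of a rise.

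The apparent half-life, which assumes constant levels and no effect of labelling, depended on the duration it was taken from. For Csf1 it was 458 min ± 200.5 (SD, n = 2) from the 15 min libraries, 170 ± 11.5 from 30 min, 106 ± 3.27 from 60 min, 100.3 ± 13.8 from 90 min and 83.2 ± 0.496 from 120 min. For Nfkbia it was 233 min ± 147 from 15 min, 31.7 ± 1.01 from 30 min and 15.9 ± 1.61 from 60 min. For Cxcl1 it was 38.4 min ± 12.4 from 15 min, 11.9 ± 3.52 from 30 min and 18.9 ± 1.47 from 60 min. Ratios were turned into half-lives only between fractions of 0.01 and 0.99, which left out at least 1 library of Nfkbia, Tnfaip3 and Cxcl1 at 120 min. Over the genes with a ratio between these bounds, the median was 247 min ± 7.16 after 60 min and 198 ± 5.41 after 120 min. These were 9027 and 9028 of the 9065 genes in the 60 min libraries and 8838 and 8724 in the 120 min libraries. After 15 min only 5551 and 3366 genes were within the bounds, and their median of 519 min ± 66.7 leaves out the many genes with lower ratios. The half-life of Cxcl12 was 397.8 and 883.4 min in 15 min replicates A and B, 253.9 and 160.2 min after 60 min, and 260.4 and 368.0 min after 120 min. Both 15 min values of Cxcl12 were above those of the 8 later libraries.

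All 10 genes had at least 1 ATTTA, the core of AU-rich elements, in the 3′ UTR of their longest annotated coding transcript (GENCODE M21, GRCm38). The share of all genes with an ATTTA was not counted, so this cannot be called a trait of the 10. Over 8932 genes the median 3′ UTR length was 1242 bases and the median density 1.41 ATTTA per kilobase. The longer element TTATTTATT was found in 3 of the 10, namely Cxcl1 (2 copies), Nfkbia and Tnfaip3 (1 copy each), and in 8.43% of 8932 genes. The search used the transcript's strand, and each TTATTTATT contains an ATTTA. These are the 3 genes with the highest mean ratios at 60 min, and this held at every duration except 15 and 120 min. At 15 min the mean ratio of Cxcl5 (7.6%), without TTATTTATT, was above that of Nfkbia (5.39%). At 120 min the mean ratio of Ccl7 (92.75%), also without it, was above that of Cxcl1 (92.52%). In both pairs the libraries overlapped. The libraries of the low-count gene Tnfaip3 also overlapped those of Cxcl5 and Ccl7 at 30 min and those of Ccl7 at 90 min. Its place above them is therefore not settled at 30 and 90 min. Windows of 30 bases are shown for Cxcl1, Nfkbia and Tnfaip3 and for Nfkb2, the gene with the lowest ratio at 60 min, with each ATTTA in capitals.
Cxcl1, chr5:90892606-90892635, plus strand: gtcctATTTATTTAtgtATTTATTTAttcc
Nfkbia, chr12:55489608-55489637, minus strand: aggaccacgttttATTTAttgtgcttttga
Tnfaip3, chr10:19001753-19001782, minus strand: ttATTTAttatgaacttccaagttATTTAa
Nfkb2, chr19:46311944-46311973, plus strand: taatcgaaatcttATTTAaacctcaagccc
Each window is the stretch of its 3′ UTR with the most bases in ATTTA, with ties going first to stretches with TTATTTATT. The Cxcl1 window holds 4 copies of ATTTA and the Tnfaip3 window 2. The Nfkbia window holds 1 copy, as does the Nfkb2 window. ATTTA density was 11.8 per kilobase of 3′ UTR in Cxcl1, 5.71 in Nfkb1, 4.60 in Ccl7, 4.50 in Cxcl5, 3.91 in Nfkbia, 3.64 in Ccl2, 2.75 in Tnfaip3, 1.90 in Csf1, 1.58 in Nfkb2 and 0.771 in Cxcl12, with a median of 1.41 over all genes. The density did not follow the order of the ratios, since Nfkb1, with a mean ratio of 21.9% at 60 min, had the second highest density and Tnfaip3 one of the lower ones. Among all genes the median ratio at 60 min was 22.2% with TTATTTATT and 15.0% without it. Genes with it had longer 3′ UTRs, with median lengths of 2477 and 1165 bases, and longer sequences hold more copies of any motif. Their median ATTTA density was also higher, at 2.56 beside 1.27 per kilobase. The part of length or density in the difference of ratios was not tested. Ccl7 and Cxcl5 had ratios over 50% at 60 min with 2 and 5 copies of ATTTA and no TTATTTATT (0 copies). Matches are descriptions of the sequence.

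The other genes of the pathway were taken from a list of 79 receptors, adaptors, kinases, subunits, inhibitors and further target genes, of which 73 were in the table. In the trend 62 were tested, and 6 passed upward and 14 downward, 32.3% of the 62. Of all genes 37.8% passed, 18.3% upward and 19.5% downward. Of 20 receptors and adaptors tested, 8 passed downward and 1 upward, 45.0% of the 20. Traf6, the ubiquitin ligase that links Toll-like and interleukin receptors to the kinases, fell by 0.28 ± 0.0363 log2 per hour (SE, edgeR adjusted p = 5.92e-08), and Tlr4, the endotoxin receptor, by 0.22 ± 0.0332 (adjusted p = 1.31e-06). Irak1, a kinase that acts just before Traf6, rose by 0.17 ± 0.0230 (adjusted p = 1.41e-07). Of 10 kinases, Chuk, a catalytic subunit of the IkB kinase complex, fell by 0.19 ± 0.0250 log2 per hour (adjusted p = 1.55e-07) and Tab3, an adaptor of the kinase Map3k7 counted with them, by 0.31 ± 0.0530 (adjusted p = 8.08e-06).

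The other kinases did not pass. Among 3 further NF-kB subunits, Rel fell by 0.38 ± 0.0601 log2 per hour (SE, edgeR adjusted p = 2.38e-06) and the other 2 did not pass. Among 13 other inhibitors, 2 passed downward and 1 upward, 23.1% of the 13 beside 37.8% of all genes. Itch, a ubiquitin ligase that works with Tnfaip3, fell by 0.21 ± 0.0297 log2 per hour (edgeR adjusted p = 3.01e-07). Of the receptors for the chemokines and Csf1, 2 of 6 were tested. Ackr3, the scavenging receptor of Cxcl12, fell by 0.26 ± 0.0362 log2 per hour (adjusted p = 2.39e-07). Of 9 further chemokines and target genes tested, 2 passed upward and none downward (0 by this test), 22.2% of the 9.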

How the data were processed

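The 12 libraries share 1 table of 17419 genes from the authors. It holds estimated counts, per the file headers unscaled, of which 20.4% were not whole (tolerance 1e-06). The new-to-total ratio was deposited as a fraction per labelled library, with its posterior maximum (used here), mean and 0.05 and 0.95 quantiles. Alpha and beta, deposited beside it, are of the score kind and went unused. The submitters' processing notes name cutadapt, Bowtie2 2.3.0 and STAR 2.7.10b without their roles, with the genome build, annotation and strand setting not given in the sources used here. Reads with many conversions may fail to align, which would lower counts and ratios, and counts alone cannot show this.

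Groups and replicate letters came from the sample titles. Counts were rounded and tested with the quasi-likelihood test of edgeR 4.0.16 (R 4.3.3) after filterByExpr and TMM scaling (factors 0.970 to 1.02, common biological coefficient of variation 4.44%). All 12 libraries shared a fit for the contrasts (11564 genes), and the 10 labelled libraries a fit with time in hours for the trend (11526 genes), with Benjamini-Hochberg adjustment over all genes and a threshold of 0.05. CPM used TMM library sizes. New RNA was the ratio times CPM. The implied loss of a library was the share d at which multiplying new counts by 1/(1-d) brought Spearman's rho between ratio and log2 fold change against no4sU (pseudocount 1) to 0. DESeq2 1.42.0 was an alternative. The tests were also run on simulated data, in which all genes shared a common spread and no library stood apart. That run therefore does not cover the dependence on single libraries reported here. Intervals and errors over 2 libraries limit precision, and counting error alone is large for Tnfaip3, Cxcl1 and Cxcl12.

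All 10 genes are named. Of the pathway list, the 8 genes with the smallest adjusted p in any of the 3 tests are named, and for each gene with a mean count of at least 100 the 2 genes with the closest ratios were determined. The 10 genes and the lists were chosen with earlier results of these data known. Promoters are from RefSeq on GRCm38.p6, with no entry printed for Nfkb1, Ccl2, Ccl7 and Cxcl5. Locations and 3′ UTRs, found by Ensembl ID, are those of GENCODE M21 (GRCm38), which need not be the authors' build.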

Additional observations from a re-analysis of the deposited data

How the results depend on the processing

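The number of the 10 genes past the threshold depended on the setting. At 120 min against no4sU it was 1, and it was 2 with scaling by library size alone, 2 with no filter on low counts, 0 with only the 2 groups compared and 0 with the labelled part scaled up by the implied loss; leaving out each library gave 0 to 2. At 120 against 15 min it was 2, and it was 1 by library size alone, 4 with only the 2 groups and 1 (Nfkbia) with the implied loss; leaving out each library gave 0 to 3. In the trend it was 4, with 2 by DESeq2, 5 by library size alone (Nfkb1 added), 3 with the implied loss (Nfkbia, Nfkb2 and Ccl2; Tnfaip3 was too low in count to enter) and 2 to 4 without each library. At 15 to 90 min it was 0 under all alternatives. Values that changed sign were those of Nfkbia against no4sU by library size (-0.0524) and, with the implied loss, of Ccl2 (0.14), Ccl7 (0.15) and Cxcl1 (0.13) against no4sU, Ccl7 (0.28) and Cxcl1 (0.16) at 120 against 15 min, and Ccl7 (0.13) and Cxcl1 (0.17) in the trend. Leaving out each library gave ranges across 0 at 120 min against no4sU for Nfkbia (-0.0318 to 0.0594), Nfkb1 (-0.1474 to 0.0057), Ccl2 (-0.1287 to 0.02) and Cxcl1 (-0.3151 to 0.068), at 120 against 15 min for Ccl7 (-0.1041 to 0.0871), and in the trend for Cxcl1 (-0.0785 to 0.0363) and Cxcl12 (-0.0504 to 0.0326). The cause was not tested.

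Counts over all genes at 120 min against no4sU were 1643, and 171 with only the 2 groups, 175 with the implied loss, 1060 by DESeq2, 3533 and 1899 when no4sU replicate A or B was left out, and 452 or 466 when 120 min replicate A or B was left out. At 120 against 15 min they were 2228, and 3818, 235 and 1455 in the same order of settings, 3700 and 3701 when no4sU replicate A or B was left out, 657 and 1037 for 15 min replicate A or B, and 1017 and 705 for 120 min replicate A or B. The trend gave 4362 genes, and 1605 with the implied loss, which was run on genes reaching a mean count of 100. By library size alone the split was 203 higher and 1684 lower (628 and 1015 by TMM) against no4sU, 426 and 1867 (917 and 1311) at 120 against 15 min, and 1172 and 3031 (2111 and 2251) in the trend. With the replicate letter as a block, 1, 2 and 4 of the 10 genes passed in the 3 tests, and 1737, 2315 and 4447 genes overall. The differences of A minus B correlated weakly between groups, positively in 11 of 15 pairs of groups and over 0.1 in 3 (range -0.126 to 0.148). Such weak correlations cannot decide whether the letters pair the samples. With the posterior mean as the ratio, the median ratio at 60 min, the half-life and the old part over the 10 genes moved by less than the spread. Where 1 library is left, it is assumed to vary like the others.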
